A study of Homo sapiens with 2 samples.

Results

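The slow-cycling untreated melanoma cells described here were 455 of 9094 kept cells of the parental A375 library, and were chosen by a low level of 14 genes of the G2 and M phases of the cell cycle. A cell was kept if it had at least 5000 UMIs (distinct RNA molecules) and at most 20% mitochondrially encoded UMIs. The UMIs of MKI67, TOP2A, CENPF, TPX2, CCNB1, CDC20, UBE2C, BIRC5, NUSAP1, CDK1, ASPM, KIF20A, PLK1 and AURKA were summed in each cell and divided by the cell's total. Cells at or below the 5th percentile of that score, 7.358 marker UMIs per 10000, were the slow-cycling cells, and the other 8639 cells were the remaining parental cells. The last cell inside the limit had 7.357 and the first outside had 7.358 marker UMIs per 10000.

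The study set A375 cells that survived T cell attack against untreated A375 cells. A375 is a human melanoma cell line. The persister library held cells alive after 15 days with cytotoxic T lymphocytes (CTLs) against the antigen NY-ESO-1, with 7.5 ng/mL interleukin 2 and fresh CTLs every 3 days, and the parental library held untreated cells. Whether the parental cells had interleukin 2 is not stated in the labels, and both cultures were detached with 0.25% trypsin before 10x Chromium 3' v3 libraries were made. The whole series held 17895 barcodes, 10751 parental and 7144 persister. A second pair of sets came from the persister library: 2014 cells with at most 2 marker UMIs per 10000, called low-marker persister cells, and the 3863 remaining persister cells. Each group was 1 library, so no difference has a replicate check and no test was possible. Levels are counts per 1000000 UMIs (CPM) of the summed cells, and the 95% intervals of folds and shares cover counting error only.

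A cell that has left the cycle, or that is early in G1, does not carry the mitotic transcripts, which are made in G2 and M and destroyed after division. In resting cells the DREAM complex and the retinoblastoma proteins repress genes of replication and mitosis, while inhibitors of cyclin-dependent kinases (CDKs) hold the kinases inactive. In melanoma, slowly dividing cells have been described with high KDM5B, a demethylase of histone H3 lysine 4, and tolerance of treatment has been tied to such cells. A low marker score in 1 snapshot does not measure division time, so "slow-cycling" names the choice of cells and not a rate.

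The marker score had a small excess at its low end in the parental library. Of the 9094 kept cells, 1.84% (95% exact interval 1.57 to 2.13%) had fewer than 2 marker UMIs per 10000, while the next bins of 2 units held 1.22%, 1.13% and 1.33%. Of the slow-cycling cells, 167 were in that lowest bin, and 57 of them had no marker UMI at all. The median score was 3.25 in slow-cycling cells (range 0 to 7.357) and 34.6 in remaining parental cells (range 7.358 to 134.9). In the persister library 34.3% of cells (33.1 to 35.5%) had at most 2 marker UMIs per 10000, and 55.7% (54.4 to 57.0%) were at or below the parental limit. These values chose the cells and are a description of the choice.

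**Figure D1:**
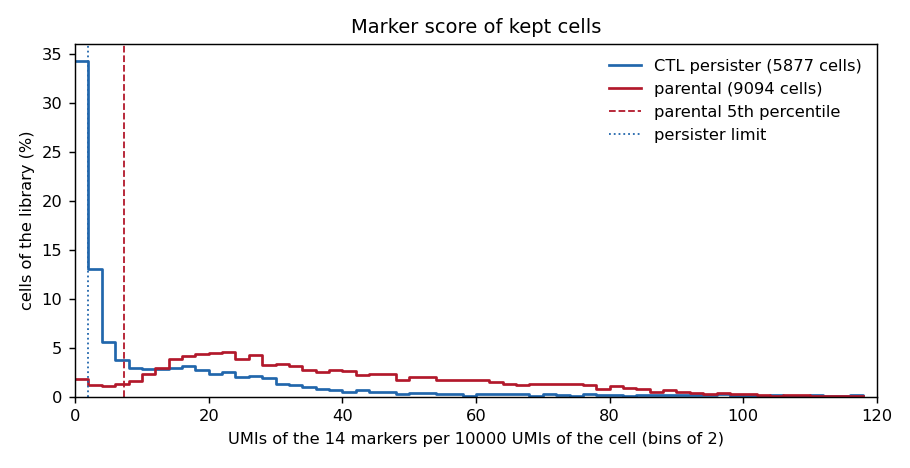
Share of kept cells (y axis, percent of the library) in bins of 2 marker UMIs per 10000 UMIs (x axis, shown to 120) for the CTL persister library (blue, 5877 cells) and the parental library (red, 9094 cells). The dashed line is the parental 5th percentile (7.358) and the dotted line the persister limit (2). The parental curve has 1.84% of its cells in the lowest bin and 1.22% in the next.

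Slow-cycling cells were shallower than the remaining cells. They had a median of 6799 UMIs and 2440 genes, against 8276 UMIs and 2790 genes in remaining parental cells. The median mitochondrial share was 6.76% in slow-cycling cells and 5.87% in remaining cells. Ribosomal protein genes held 23.7% of the summed UMIs in slow-cycling cells and 21.3% in remaining cells. The share of cells at or below the limit was 9.20% at 5000 to 6499 UMIs, 6.996% at 6500 to 7999, 2.71% at 8000 to 9999, 1.92% at 10000 to 14999 and 1.39% at 15000 or more. Cells thinned to 5000 UMIs gave 486 cells at or below the 5th percentile, of which 416 were among the 455. Summed over 25 genes, T cell markers came to 9.26 CPM in slow-cycling cells and 9.61 CPM in remaining cells. Of the 25, 20 were at 0 in slow-cycling cells, 30 slow-cycling cells had a UMI of any, and 0 had 3 or more of the genes. The 2 libraries shared 38 barcode sequences, of which 2 were slow-cycling cells. The melanoma genes SOX10, MIA and S100B were present at 135.0, 224.6 and 127.2 CPM in slow-cycling cells, against 97.8, 165.7 and 43.7 CPM in remaining cells. S100A1 and MITF had 111.7 and 16.4 CPM in slow-cycling cells, against 48.7 and 13.7 CPM in remaining cells. VIM and NES ran the other way, with 1741 and 78.5 CPM in slow-cycling cells, against 1932 and 93.3 CPM in remaining cells. The pigment genes PMEL, MLANA and TYR were at 0 in slow-cycling cells and at no more than 0.114 CPM in remaining cells. The part of depth, mitochondrial share and ribosomal share in the differences given here was not tested.

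A gene was measured if it had 20 CPM or more in either set of parental cells, and called higher or lower past 1.5-fold. A gene under 20 CPM in 1 set was measured through the other set alone. Such a gene could only be called in the direction of the set that measured it. Of 5786 measured genes, slow-cycling cells had 301 called higher, which is 5.2%, and 507 called lower, which is 8.76%. The counts of each gene list in the parental library are to be read beside these shares. Calls used log2(CPM + 1), a scale on which the folds of low genes come out too small. The 14 markers are not among the genes counted. The median gene had a log2 fold of -0.03. Scaling by edgeR's TMM factors or DESeq2's size factors moved that median to -0.16 and -0.18, and the share of higher genes among all genes called was 37.3% with totals, 19.5% with TMM and 17.9% with DESeq2. Either scaling replaced only the 2 totals, and so moved every fold down by a similar amount. Lower calls could then not be lost, and all 507 stayed by construction. Of the 301 higher genes, 184 and 172 were still higher. In cells of 8000 UMIs or more, 106 of the 301 and 225 of the 507 were still called. With the limit set at the 10th percentile of the score, which took in 910 cells, 104 of the 301 and 167 of the 507 were still called. A call described as lost under the 10th percentile fell short of 1.5-fold in those cells. The same cells supplied the choice and the comparison, so the cell cycle genes in these counts had to differ.

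The markers themselves are given as what the choice did. PLK1, a mitotic kinase (chr16:23677656-23690367 in GENCODE 29 on GRCh38, as for all genes), had 5.67 CPM in slow-cycling cells and 112.0 CPM in remaining cells. MKI67, the proliferation antigen Ki-67 (chr10:128096659-128126385), had 18.2 CPM in slow-cycling cells and 323.7 CPM in remaining cells. After thinning, 7.25% of slow-cycling cells and 73.0% of remaining cells had an MKI67 UMI. TOP2A, a DNA topoisomerase, had 32.9 CPM in slow-cycling cells and 563.1 CPM in remaining cells. The parental library holds a single cell type, so no share could be given from cells that should lack a gene.

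Windows upstream of the markers are shown because genes of G2 and M move together and are known to carry the cell cycle genes homology region (CHR, TTTGAA), the element through which DREAM acts, and the CCAAT box bound by NF-Y. The 250 bases before the RefSeq start (GRCh38.p14) were searched on both strands for TTTGAA and CCAAT, which overlap in the MKI67 window. Of the 11 windows found for 10 of the 14 markers, 63.6% held TTTGAA and 100% CCAAT. For the other G2 and M phase genes, 43.1% of 58 windows held TTTGAA and 69.0% CCAAT. For the S phase genes, 9.43% of 53 windows held TTTGAA and 60.4% CCAAT. For the 301 genes higher in slow-cycling cells, 12.8% of 399 windows held TTTGAA and 32.8% CCAAT, and all 35116 windows of the table gave 13.3% and 32.0%. The FOXO motif GTAAACA was in 2.26% of the windows of the higher genes and in 2.98% of all windows. A match is a run of letters, not a bound site. In the following windows, given on the gene's strand with capitals at TTTGAA or CCAAT and their complements, PLK1 (chr16:23678639-23678888, plus strand), CDC20, the activator of the anaphase-promoting complex (chr1:43358731-43358980, plus strand), and MKI67 (chr10:128126424-128126673, minus strand) are low by choice, and SLC26A2 (chr5:149960508-149960757, plus strand) was the abundant gene among those most raised.
PLK1: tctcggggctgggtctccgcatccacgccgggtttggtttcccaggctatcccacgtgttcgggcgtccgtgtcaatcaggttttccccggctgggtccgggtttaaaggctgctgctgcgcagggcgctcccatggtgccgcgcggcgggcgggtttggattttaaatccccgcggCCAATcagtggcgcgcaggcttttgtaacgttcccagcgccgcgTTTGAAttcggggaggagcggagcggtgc
CDC20: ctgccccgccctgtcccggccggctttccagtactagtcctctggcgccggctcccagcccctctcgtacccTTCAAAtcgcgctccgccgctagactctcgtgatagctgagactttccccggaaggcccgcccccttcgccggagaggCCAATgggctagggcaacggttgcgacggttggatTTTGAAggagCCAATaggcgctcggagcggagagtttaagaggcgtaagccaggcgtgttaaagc
MKI67: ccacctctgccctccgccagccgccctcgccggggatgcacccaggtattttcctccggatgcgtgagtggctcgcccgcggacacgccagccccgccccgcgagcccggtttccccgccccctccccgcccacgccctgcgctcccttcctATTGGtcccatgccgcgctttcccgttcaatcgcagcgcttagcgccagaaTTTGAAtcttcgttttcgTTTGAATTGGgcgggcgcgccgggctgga
SLC26A2: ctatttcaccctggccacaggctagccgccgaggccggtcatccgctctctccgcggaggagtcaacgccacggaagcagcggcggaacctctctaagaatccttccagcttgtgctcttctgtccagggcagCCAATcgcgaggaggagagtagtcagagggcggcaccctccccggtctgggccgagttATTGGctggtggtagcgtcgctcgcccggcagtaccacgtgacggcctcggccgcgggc
The first 3 windows have both motifs because they were picked from the marker windows that hold both. The SLC26A2 window, which was not picked by motif, has CCAAT without TTTGAA.

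Beyond the markers, nearly every measured gene of mitosis was lower in slow-cycling cells. Of 48 measured genes of the other G2 and M phase list, 47 were lower and 0 higher. Their median log2 fold was -2.43, against -0.03 for all genes. CDCA8, a subunit of the chromosomal passenger complex, had 6.87 CPM in slow-cycling cells and 82.9 CPM in remaining cells, 12.1-fold lower (8.04 to 19.1). HJURP, the chaperone of the centromeric histone CENP-A, had 7.76 CPM in slow-cycling cells and 86.2 CPM in remaining cells, 11.1-fold lower (7.57 to 17.0). KIF4A, a chromosome-bound kinesin, had 5.97 CPM in slow-cycling cells and 71.3 CPM in remaining cells, 11.9-fold lower (7.72 to 19.6). GTSE1, KIFC1, CENPE, DEPDC1, KIF14, HMMR, BUB1, AURKB, TTK, KIF2C, KIF23 and NUF2 were the others of the 15 with the lowest folds, with log2 folds from -3.41 to -2.84. At 5000 UMIs a slow-cycling cell had a median of 16 UMIs of the list and a remaining cell 41.

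Genes of S phase, which the choice did not name, were lower as well. Of 43 measured S phase and DNA replication genes, 39 were lower and 0 higher, and the median log2 fold was -1.01. RRM2, the small subunit of ribonucleotide reductase, had 37.9 CPM in slow-cycling cells and 146.0 CPM in remaining cells, 3.85-fold lower (3.23 to 4.62). TYMS, thymidylate synthase, had 113.2 CPM in slow-cycling cells and 247.9 CPM in remaining cells, 2.19-fold lower (1.98 to 2.43), with a log2 fold of -0.57 under the 10th percentile, below the threshold. PCNA, the sliding clamp, had 75.5 CPM in slow-cycling cells and 138.7 CPM in remaining cells. All 8 measured replication-dependent histone genes were lower, HIST1H1B at 49.3 CPM in slow-cycling cells and 202.9 CPM in remaining cells. Histone genes are near-identical and their messages mostly lack poly(A) tails, so these counts are uncertain. Their sum was 1442 CPM in slow-cycling cells and 4465 CPM in remaining cells.

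Some of the cells were not low in S phase genes. At 5000 UMIs, 15.8% of slow-cycling cells reached the median of remaining cells for the S phase list, and 9.45% did so for the histone list. The histone UMIs of a slow-cycling cell had a median of 4, a 75th percentile of 6 and a 95th percentile of 37.3, against 20, 36 and 53 in remaining cells. Leaving 389 cells that were also at or below the parental median of the S phase list gave 375 higher and 629 lower genes, with 300 of the 301 and 502 of the 507 still called. With at least 8000 UMIs per cell, the 5th percentile was 12.5 per 10000 and 105 of its 238 low cells were among the 455. There the medians were -0.30 for S phase genes and -0.15 for histones, and BLM, MCM2, PCNA and HIST1H1B were past 1.5-fold no longer, nor were they under the 10th percentile.

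Control of entry into S phase followed the same division. Of 17 measured genes of the G1 cyclin, CDK and E2F list, 10 were lower and 0 higher. MYBL2, the B-Myb factor that activates mitotic genes, had 52.3 CPM in slow-cycling cells and 178.2 CPM in remaining cells, 3.41-fold lower (2.94 to 3.98). FOXM1, another activator of mitotic genes, had 25.1 CPM in slow-cycling cells and 78.6 CPM in remaining cells. RBL1, the p107 pocket protein, had 11.3 CPM in slow-cycling cells and 33.7 CPM in remaining cells. E2F1, CDT1, SKP2, CDK2 and CDC25A were among the others, with log2 folds from -1.10 to -0.70. CCND1, cyclin D1, was not: it had 746.2 CPM in slow-cycling cells and 599.0 CPM in remaining cells, 1.25-fold higher (1.20 to 1.30) and short of the threshold. CCNE2, a cyclin of the G1 to S step, had 24.8 CPM in slow-cycling cells and 37.7 CPM in remaining cells, just short of the threshold.

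Of 25 genes of translation factors and ribosome biogenesis, 3 were lower and 0 higher, a share near the 8.76% of all measured genes, and the median was -0.33 (log2). These were NOP56 and NOP58, of the nucleolar particle that methylates ribosomal RNA, and RAN, the transport GTPase. NOP56 had 197.7 CPM in slow-cycling cells and 315.6 CPM in remaining cells, 1.60-fold lower (1.48 to 1.73). All 3 calls were lost in cells of 8000 UMIs or more and under the 10th percentile. Of 20 heat-shock proteins, 9 were lower and 0 higher, and their median was -0.50. HSPA8, the constitutive HSC70, had 738.5 CPM in slow-cycling cells and 1315 CPM in remaining cells, 1.78-fold lower (1.71 to 1.85), though its log2 fold was -0.53 under the 10th percentile, below the threshold. HSP90AA1 had 1902 CPM in slow-cycling cells and 3016 CPM in remaining cells. HSPA1A and HSPA1B are near-identical copies, so their split is uncertain, and both were lower at log2 folds of -1.73 and -1.31. Of 16 tubulin and cell growth genes, 5 were lower (TUBA1C, TUBB6, TUBB, STMN1 and TUBA1B) and 1 higher, TUBA1A, an alpha-tubulin, with 47.2 CPM in slow-cycling cells and 25.6 CPM in remaining cells. The calls of TUBB6 and TUBA1A were lost in cells of 8000 UMIs or more and under the 10th percentile. FOSL1, an AP-1 subunit that follows ERK signalling, had 138.9 CPM in slow-cycling cells and 284.6 CPM in remaining cells, 2.05-fold lower (1.87 to 2.25), while 1 of the 14 measured ERK output genes was higher, SPRY4, a feedback inhibitor. The phosphatases DUSP6 (152.3 CPM in slow-cycling cells, 125.1 CPM in remaining cells) and DUSP4 (130.8 CPM in slow-cycling cells, 96.5 CPM in remaining cells) were not past the threshold.

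Among genes that restrain the cycle, some were higher and some lower. Of 14 measured CDK inhibitor and quiescence genes, 6 were higher and 4 lower, and the median log2 fold was 0.38. Among all measured genes, 5.2% were higher and 8.76% lower. MXD4 and MXI1, repressors that take the place of MYC on its partner MAX, were both higher, MXD4 (chr4:2247432-2262294) at 61.8 CPM in slow-cycling cells and 16.0 CPM in remaining cells, 3.86-fold higher (3.31 to 4.47). After thinning, 25.7% of slow-cycling cells (21.8 to 29.99%) and 7.83% of remaining cells (7.27 to 8.41%) had an MXD4 UMI. KLF9, a glucocorticoid-responsive repressor, had 49.9 CPM in slow-cycling cells and 17.6 CPM in remaining cells. MXD4 and KLF9 were under 20 CPM in remaining cells and were measured only through the slow-cycling cells. CDKN1C, the inhibitor p57, had 57.0 CPM in slow-cycling cells and 21.0 CPM in remaining cells, 2.72-fold higher (2.33 to 3.16). CDKN1A, the inhibitor p21, had 77.9 CPM in slow-cycling cells and 38.6 CPM in remaining cells, 2.02-fold higher (1.77 to 2.29), but its log2 fold was 0.22 among cells with 5000 to 8000 UMIs, below the threshold. IRS2, a substrate of the insulin receptor, was also higher. CDKN1B, the inhibitor p27, ran the other way, with 13.4 CPM in slow-cycling cells and 23.6 CPM in remaining cells, and so did CDKN2C, CDKN2D and KLF6. CDKN1B was within 1.5-fold after thinning, where its log2 fold was -0.48, and also among cells with 5000 to 8000 UMIs and against remaining cells below the median score. Of 14 p53 targets, 5 were higher (CDKN1A, RRM2B, TP53I3, MDM2 and PHLDA3) and 0 lower.

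The 15 genes with the highest folds include MXD4 and the following. SLC26A2, a sulfate transporter needed for sulfated proteoglycans (chr5:149960737-149993455), had 656.7 CPM in slow-cycling cells and 167.7 CPM in remaining cells, 3.92-fold higher (3.74 to 4.10). Its UMIs were in 409 of the 455 cells, the 5 cells with most of them held 5.55%, and after thinning 84.4% of slow-cycling cells (80.7 to 87.6%) and 51.0% of remaining cells (49.9 to 52.1%) had one. IGFBP5, an insulin-like growth factor binding protein (chr2:216672105-216695525), had 69.6 CPM in slow-cycling cells and 18.6 CPM in remaining cells, 3.75-fold higher (3.25 to 4.31). LOXL4, a lysyl oxidase that cross-links collagen, had 32.2 CPM in slow-cycling cells and 6.93 CPM in remaining cells. S100B, a calcium-binding protein of melanocytes and Schwann cells, had 127.2 CPM in slow-cycling cells and 43.7 CPM in remaining cells, 2.91-fold higher (2.63 to 3.22). PNRC1 (a nuclear receptor coactivator), SLFN5, FBXO32 (a ubiquitin ligase of muscle atrophy and FOXO target), SPON2 (a secreted matrix protein), CEBPD and TFAP2B (transcription factors) and DEPDC7 had log2 folds from 1.55 to 1.86. ANKRD1 and CTGF, targets of the YAP and TEAD factors, had log2 folds of 2.03 and 1.54. All of the 15 genes with the highest folds stayed past the 1.5-fold threshold under every setting tried in the parental library. They were picked for their folds in these cells, and the settings reuse many of the cells, so this describes the choice. Apart from SLC26A2 and S100B, the 15 were under 20 CPM in remaining cells and were measured only through the slow-cycling cells.

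The UMIs of a few genes came from few cells. IL24, a secreted cytokine, had the highest fold of the measured genes, 58.2 CPM in slow-cycling cells and 9.36 CPM in remaining cells, but 60 cells had a UMI of it, 1 cell had 54 of its 195 UMIs, and the 5 cells with most held 52.8%. The 5 cells with most UMIs held 45.6% of the UMIs of DDIT3, and 85.5% of ATF3, 77.2% of EGR1 and 58.8% of GDF15, stress or immediate early genes that were under 20 CPM in both sets and were not called. DDIT3, the stress factor CHOP, had 47.8 CPM in slow-cycling cells and 17.6 CPM in remaining cells, whereas 11.0% of slow-cycling cells and 7.98% of remaining cells had a UMI at 5000 UMIs. By contrast the 5 cells with most UMIs held 5.55% of SLC26A2, 9.18% of MXD4 and 6.58% of KDM5B.

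The 15 genes with the highest folds were also counted in each cell. At 5000 UMIs, a slow-cycling cell had UMIs of a mean of 3.11 of the 15 genes, and a remaining cell of 1.32. At least 4 of them were seen in 39.3% of slow-cycling cells and 3.91% of remaining cells, and none in 4.18% of slow-cycling cells and 24.7% of remaining cells. The 15 genes were picked from these cells, so these shares describe the choice. Whether the genes share cells more often than their single shares would give was not tested.

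**Figure D2:**
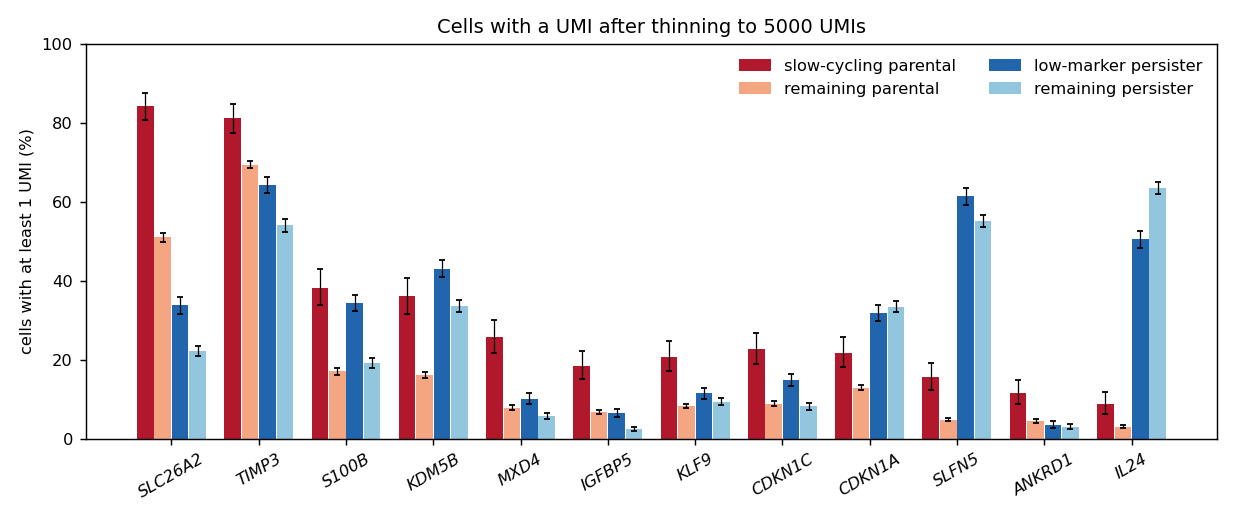
Percent of cells with at least 1 UMI of each gene (y axis) after thinning every cell to 5000 UMIs, for slow-cycling parental, remaining parental, low-marker persister and remaining persister cells, with 95% exact binomial intervals as error bars (counting error only). SLC26A2 was seen in 84.4% of slow-cycling parental cells and 51.0% of remaining parental cells, and IL24 in 8.79% of slow-cycling parental cells and 3.00% of remaining parental cells.

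Of the measured genes tied to slow cycling in melanoma, more were higher than lower. The list has 29 genes, of which 5 were at 0 in slow-cycling cells. Of 13 measured genes of that list, 7 were higher (IGFBP5, KDM5B, IGFBP3, KDM6B, CYR61, ALDH1A3 and WNT5A) and 1 lower (AXL), and the median was 0.69 (log2). IGFBP5 and KDM6B were under 20 CPM in remaining cells and were measured only through the slow-cycling cells. KDM5B had 90.8 CPM in slow-cycling cells and 38.2 CPM in remaining cells, 2.38-fold higher (2.11 to 2.68), and at 5000 UMIs 36.0% of slow-cycling cells (31.6 to 40.6%) and 16.0% of remaining cells (15.3 to 16.8%) had a UMI. With at least 8000 UMIs per cell its log2 fold was 0.47, below the threshold. The calls of KDM6B and AXL were lost there too and under the 10th percentile, that of AXL also with 5000 to 8000 UMIs and that of KDM6B also with DESeq2's size factors. AXL, a receptor kinase of dedifferentiated melanoma, had 20.01 CPM in slow-cycling cells and 34.4 CPM in remaining cells. NGFR, a neural crest receptor, had 5.08 CPM in slow-cycling cells and 5.79 CPM in remaining cells, a difference within its counting interval (0.876-fold, 0.506 to 1.42).

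Of 26 melanocyte lineage genes, 13 were at 0 in slow-cycling cells and 6 were measured, of which 2 were higher (S100B and ZEB2) and 0 lower. ZEB2 was under 20 CPM in remaining cells and was measured only through the slow-cycling cells. The median log2 fold of 0.48 was -0.02 without the filter on low genes, and the ZEB2 call was lost in cells of 8000 UMIs or more and under the 10th percentile. SOX10, the lineage's transcription factor, was 1.38-fold higher (1.25 to 1.52) and short of the threshold. MITF, the melanocyte regulator, had 16.4 CPM in slow-cycling cells and 13.7 CPM in remaining cells (1.20-fold, with a counting interval that includes 1). Of 17 mesenchymal and matrix genes, 6 were higher and 0 lower, and their median was 0.54. TIMP3, an inhibitor of matrix metalloproteinases, had 591.9 CPM in slow-cycling cells and 335.2 CPM in remaining cells, 1.77-fold higher (1.69 to 1.85), with log2 folds of 0.56 in cells of 8000 UMIs or more and 0.47 under the 10th percentile, below the threshold. SPARC, a matrix glycoprotein, had 419.0 CPM in slow-cycling cells and 258.6 CPM in remaining cells. MMP2, CTGF, CYR61 and TNC were the other 4, and the MMP2 call was lost under the 10th percentile. Of 16 neural crest and dedifferentiation genes, 3 were higher (TFAP2B, MGP and WNT5A) and 3 lower (FOSL1, TEAD4 and AXL), and the MGP call was lost in cells of 8000 UMIs or more. TFAP2B and MGP were under 20 CPM in remaining cells and were measured only through the slow-cycling cells.

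Of 9 measured nuclear-retained RNAs, 2 were higher in slow-cycling cells and 0 lower. NEAT1, the scaffold of paraspeckles, had 2133 CPM in slow-cycling cells and 1167 CPM in remaining cells, 1.83-fold higher (1.79 to 1.87), with a log2 fold of 0.52 under the 10th percentile, below the threshold. KCNQ1OT1, an antisense transcript, had 107.5 CPM in slow-cycling cells and 50.4 CPM in remaining cells, and its log2 fold of 1.08 was 0.52 in cells of 8000 UMIs or more, below the threshold. MALAT1, with 10880 CPM in slow-cycling cells and 8567 CPM in remaining cells, was short of the threshold. The median mitochondrial share and the ribosomal share were higher in the same cells, as given above, and their part in the other differences was not tested. Leaving out cells above 10% mitochondrially encoded UMIs gave 296 higher and 487 lower genes, with 285 of the 301 and 477 of the 507 still called.

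The remaining lists that had a median lay at log2 folds from -0.12 to 0.20, against -0.03 for all genes. Glycolysis and hypoxia genes had a median log2 fold of -0.05 with 0 higher and 1 lower of 15, cholesterol and fatty acid genes -0.12 with 0 of 12 called, and nuclear-encoded respiratory chain genes 0.14 with 0 of 30 called, a direction that turned to -0.001 with DESeq2's size factors. Among 16 genes of defence against oxidative stress, 1 was higher, CAT, which encodes catalase, and the median was 0.18. Immediate early genes had 3 higher and 2 lower of 12, beside 5.2% higher and 8.76% lower of all measured genes. NF-kB genes had 1 higher of 5 (TNFAIP2), unfolded protein response genes 2 higher of 19 (DDIT3 and HERPUD1), and keratinocyte and epithelial markers 0 called of 4. TNFAIP2 and DDIT3 were under 20 CPM in remaining cells and were measured only through the slow-cycling cells. The calls of CAT, TNFAIP2 and HERPUD1 were lost in cells of 8000 UMIs or more and under the 10th percentile, and those of TNFAIP2 and HERPUD1 also with TMM and DESeq2 scaling.

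**Figure D3:**
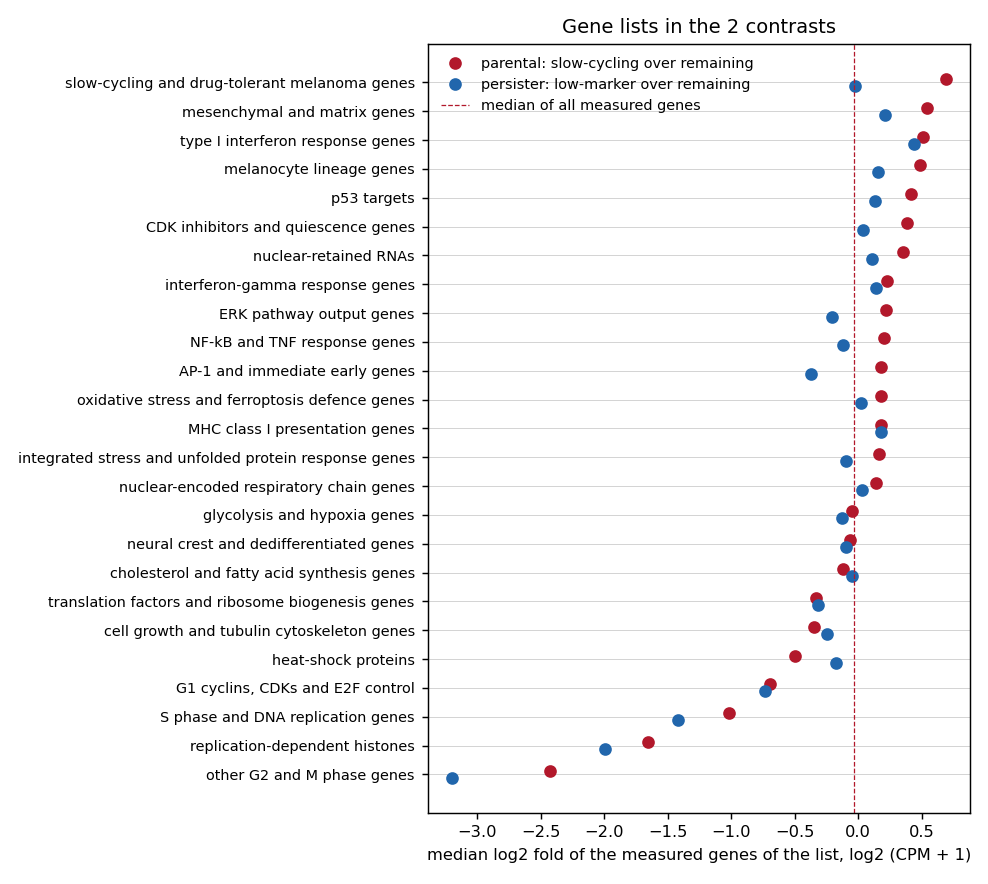
Median log2 fold (x axis, log2 of CPM + 1) of the measured genes of each gene list, for slow-cycling over remaining parental cells (red) and low-marker over remaining persister cells (blue), with the parental median of all measured genes as a dashed line at -0.03. Genes of G2 and M lie at -2.43 for parental and -3.20 for persister cells, and genes tied to slow cycling in melanoma at 0.69 for parental and -0.03 for persister cells.

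Levels along the whole marker score showed which differences stood in the lowest bin and which were graded. The bins run from the lowest to the highest percentile of the score, 0 to 5, 5 to 10, 10 to 25, 25 to 50, 50 to 75, 75 to 90 and 90 to 100. SLC26A2 had 656.7, 255.1, 175.2, 170.5, 158.8, 152.3 and 163.3 CPM, so it stepped up in the lowest bin and less in the next. MXD4 had 61.8, 25.6, 16.9, 15.9, 16.7, 13.9 and 13.2 CPM, and TIMP3 591.9 CPM in the lowest bin and 324.5 to 342.8 CPM in the others. FBXO32, with 35.5 CPM in the lowest bin and 9.08 to 12.2 CPM above it, had the same form.

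Other genes fell step by step along the score. ANKRD1 had 55.5, 28.7, 23.9, 16.8, 9.67, 5.21 and 3.98 CPM, and CDKN1A had 77.9, 52.6, 54.5, 48.7, 35.8, 25.4 and 17.7 CPM. CTGF had 38.5 CPM in the lowest and 6.25 CPM in the highest bin, with values between them in falling order. FOSL1 ran the opposite way, from 138.9 CPM in the lowest bin to 335.4 and 330.8 CPM in the top bins.

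KDM5B was high at both ends. It had 90.8, 32.4, 23.0, 28.1, 38.9, 50.5 and 61.5 CPM from the lowest to the highest bin, so the bin with most mitotic RNA had more of it than any bin but the lowest. TFAP2B and KCNQ1OT1 had the same shape, TFAP2B with 52.0 CPM in the lowest, 13.7 CPM in the middle and 21.7 CPM in the highest bin. MALAT1 had 10880, 7677, 7179, 7507, 8453, 9938 and 11247 CPM, with its highest value in the highest bin.

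Genes of the G1 to S step marked where the neighbouring cells stood. CCNE2 had 24.8, 62.6, 65.2, 54.5, 30.7, 16.2 and 6.03 CPM, and the histone genes summed to 1442, 5271, 6547, 6059, 4416, 2320 and 1350 CPM. Both were highest from the 5th to the 50th percentile, and low in the slow-cycling cells and in the highest bin. MYBL2 had 52.3 CPM in the lowest bin and 148.5 to 190.7 CPM in all others.

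**Figure D4:**
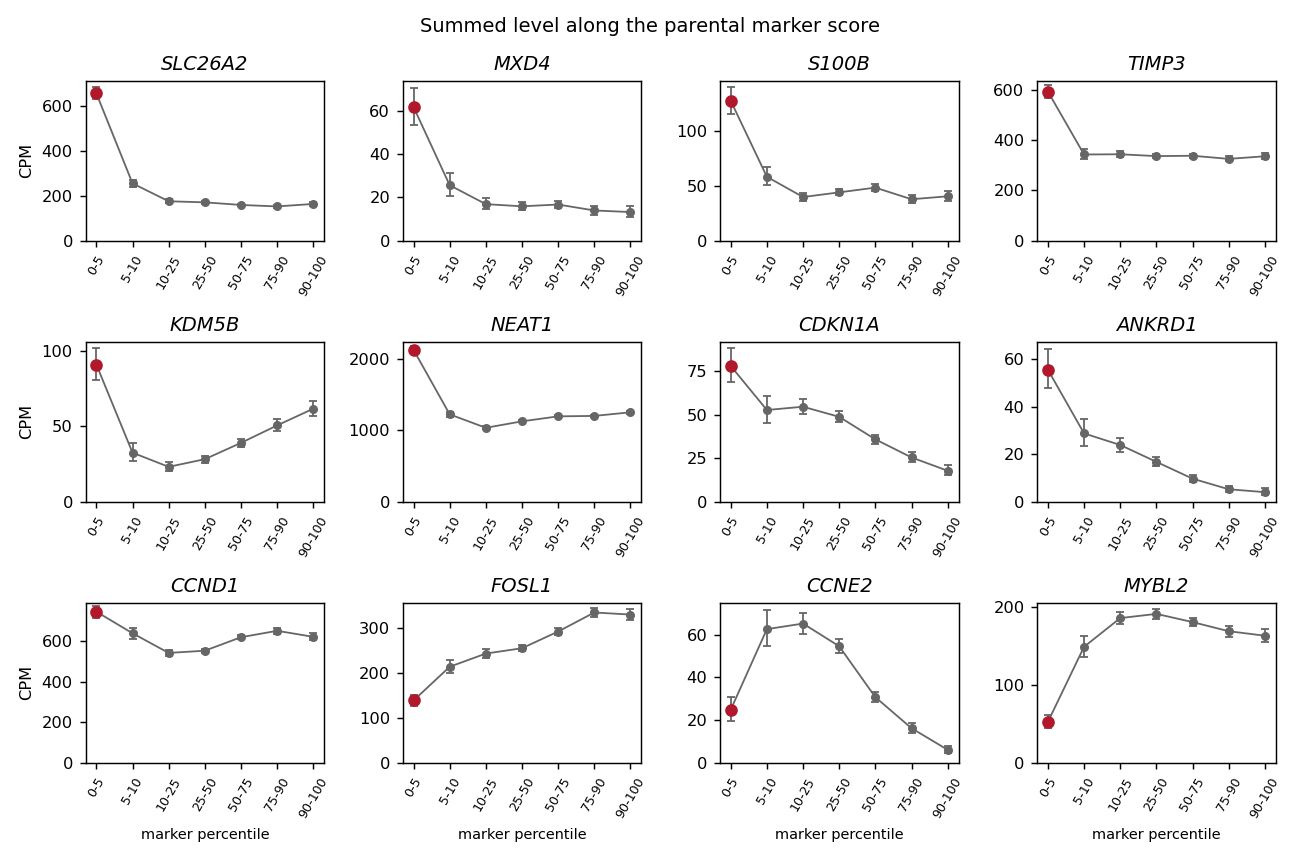
Summed level (y axis, CPM, each panel with its own scale from 0) of 12 genes in 7 bins of the parental marker score (x axis, percentile ranges, low to high), with the slow-cycling cells as the red point and exact Poisson 95% intervals as error bars. SLC26A2 and MXD4 step up in the lowest bin, CDKN1A and ANKRD1 fall across all bins but for 1 step of CDKN1A, KDM5B is 90.8 CPM in the lowest and 61.5 CPM in the highest bin, and CCNE2 is low at both ends.

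The 167 slow-cycling cells with at most 2 marker UMIs per 10000 were compared with the other 288. SLC26A2 had 796.3 CPM in the 167 cells and 578.5 CPM in the 288 cells. S100A1 and S100B, calcium-binding proteins, had 160.6 and 157.3 CPM in the 167 cells, against 84.3 and 110.4 CPM in the 288 cells. KLF9 had 67.4 CPM in the 167 cells and 40.1 CPM in the 288 cells, and PCNA 34.9 CPM in the 167 cells and 98.3 CPM in the 288 cells. Taking those 167 cells alone as the slow-cycling set gave 529 higher and 858 lower genes, with 273 of the 301 and 486 of the 507 still called. The 167 cells had a median of 6448 UMIs and 7.17% mitochondrially encoded UMIs, and the 288 cells 6974 UMIs and 6.61%.

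Genes of antigen presentation and interferon response were measured because the series concerns T cell attack. Of 13 measured MHC class I presentation genes, 0 were called in slow-cycling cells, and the median was 0.18 (log2). B2M, the shared light chain of MHC class I, had 746.2 CPM in slow-cycling cells and 672.8 CPM in remaining cells, and the difference shrank to a log2 fold of 0.02 with TMM and 0.01 with DESeq2. HLA-B had 144.2 CPM in slow-cycling cells and 108.7 CPM in remaining cells, and HLA genes are similar enough that their counts are uncertain. Of 10 interferon-gamma response genes, 1 was higher: CIITA, the activator of MHC class II, with 28.4 CPM in slow-cycling cells and 11.1 CPM in remaining cells, 2.55-fold higher (2.04 to 3.15). CIITA was under 20 CPM in remaining cells and was measured only through the slow-cycling cells. The share of all measured genes called higher was 5.2%. Of 8 type I interferon genes, 2 were higher, IFI35 and IFITM3. IFITM3 had 298.6 CPM in slow-cycling cells and 189.2 CPM in remaining cells, and fell short of the threshold with TMM and DESeq2 scaling. Both calls were lost in cells of 8000 UMIs or more, where the log2 fold of IFI35 was 0.25, and under the 10th percentile, where it was 0.47.

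No slow-cycling parental cell reached the usual interferon-gamma level of low-marker persister cells, although the extremes met. At 5000 UMIs the highest slow-cycling cell had 11 UMIs of the interferon-gamma list, whereas the 1st percentile of low-marker persister cells was 15.1 and their lowest cell had 9. For MHC class I genes the highest slow-cycling cell had 35 UMIs and the 1st percentile of low-marker persister cells was 42.00, with a lowest cell of 28. The number of slow-cycling cells that reached the 5th percentile of low-marker persister cells was 0 for both lists. These levels were set across 2 libraries with 1 treatment each, so library and treatment cannot be told apart.

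The same comparison was made inside the persister library, with other cells and the same 14 markers. Its limit was 2 marker UMIs per 10000, in place of 7.358. Against remaining persister cells, low-marker persister cells had 121 of 5518 measured genes called higher, which is 2.19%, and 365 called lower, which is 6.61%. Of 4974 genes measured in both libraries, 228 were higher in slow-cycling parental cells and 77 in low-marker persister cells, and 58 were higher in both, which is 25.4% of the parental and 75.3% of the persister list. For lower genes the numbers were 403, 349 and 270, or 67.0% and 77.4%. No gene was called in opposite directions. Against only those remaining cells whose score was below their library's median, 4 genes were higher and 56 lower in both libraries. The markers fix this result for cell cycle genes, of which 76 of 78 and 77 were shared. Outside the S, G2 and M phase lists, 194 genes were lower in both, of 325 parental and 272 persister genes. The 194 still include mitotic genes that the lists do not hold, such as CEP55 and KNL1. The choice of cells fixed the result for those too, and how many they are was not counted.

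Of the 58 genes higher in both libraries, those that moved most are given here. A gene under 20 CPM in the remaining cells of a library could only be called higher there. SLC26A2 had 113.4 CPM in low-marker persister cells and 60.6 CPM in remaining persister cells, 1.87-fold higher (1.78 to 1.97). MXD4 had 23.5 CPM in low-marker persister cells and 11.4 CPM in remaining persister cells, 2.06-fold higher (1.83 to 2.31). IGFBP5 had 26.3 CPM in low-marker persister cells and 7.47 CPM in remaining persister cells, 3.51-fold higher (3.09 to 4.00). MXD4 and IGFBP5 were under 20 CPM in the remaining cells of both libraries, so higher was the only call open to them. S100B had 105.3 CPM in low-marker persister cells and 45.1 CPM in remaining persister cells, and S100A1 had 130.9 CPM in low-marker persister cells and 62.4 CPM in remaining persister cells. TRIM2, a ubiquitin ligase of neurons, NEFL, a neurofilament, PLAT, the tissue plasminogen activator, and the antisense RNA SLCO4A1-AS1 had log2 folds of 0.89 to 1.05 in the persister library and 0.93 to 1.23 in the parental library, where the PLAT call was lost in cells of 8000 UMIs or more. CDKN1C, MXI1 and NEAT1 were also higher in both, with log2 folds in the persister library of 0.68, 0.74 and 0.73.

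Other genes called higher in slow-cycling parental cells were not called higher in low-marker persister cells. The limits were unlike: 34.3% of persister cells had at most 2 marker UMIs per 10000, and 55.7% were at or below the parental 7.358. The remaining persister cells thus held cells that the parental limit would have taken. With the parental limit, 150 genes were higher and 376 lower in the persister library. The part of the limit in the folds below was not tested. IL24 had 450.8 CPM in low-marker persister cells and 555.2 CPM in remaining persister cells. DEPDC7 had 39.7 CPM in low-marker persister cells and 42.7 CPM in remaining persister cells, and FBXO32 had 24.5 CPM in low-marker persister cells and 25.1 CPM in remaining persister cells. CTGF had 13.0 CPM in low-marker persister cells and 18.5 CPM in remaining persister cells. CDKN1A had 110.5 CPM in low-marker persister cells and 107.5 CPM in remaining persister cells, and DDIT3 had 422.3 CPM in low-marker persister cells and 420.1 CPM in remaining persister cells. KDM5B had 117.7 CPM in low-marker persister cells and 89.7 CPM in remaining persister cells, short of the threshold at a log2 fold of 0.39. Whether a fold differs between the libraries was not tested, since each has 1 library.

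Among lower genes outside the cycle lists, FOSL1 and TUBA1C were lower in both libraries. FOSL1 had 289.3 CPM in low-marker persister cells and 551.5 CPM in remaining persister cells, 1.91-fold lower (1.86 to 1.96). TUBA1C had 147.1 CPM in low-marker persister cells and 273.7 CPM in remaining persister cells. AXL had 30.03 CPM in low-marker persister cells and 49.8 CPM in remaining persister cells, lower there as well. CEP55, KNL1, SGO1, SGO2, PRR11, PBK, SKA3, KIF15, ARHGAP11A and DEPDC1, most of them mitotic genes not in the lists, had the lowest folds common to both libraries. HSPA8, by contrast, had 124.7 CPM in low-marker persister cells and 116.1 CPM in remaining persister cells, and 1 of 18 heat-shock proteins was lower there, HSP90AA1.

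By list, the low-marker persister cells had 45 of 46 other G2 and M phase genes lower, 32 of 35 S phase genes and 9 of 11 histone genes. Of 15 CDK inhibitor and quiescence genes 3 were higher and 1 lower, of 15 matrix genes 2 were higher (SPARC and TIMP3), and of 15 genes tied to slow cycling in melanoma 1 was higher (IGFBP5) and 1 lower (AXL). Among all genes measured in the persister library, 2.19% were higher and 6.61% lower, so 1 lower of 15 is near that share. Of 30 type I interferon genes 4 were higher, ISG15, IFI27, IFI35 and OAS1, and of 22 interferon-gamma and 19 MHC class I genes 0 were called.

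**Figure D5:**
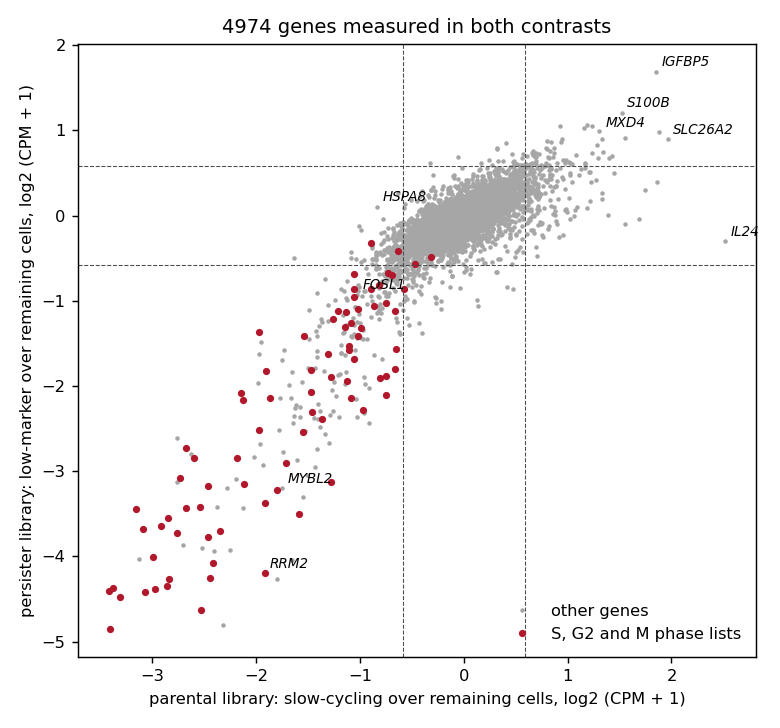
Log2 folds (log2 of CPM + 1) of 4974 genes measured in both contrasts, slow-cycling over remaining parental cells on the x axis and low-marker over remaining persister cells on the y axis, with genes of the S, G2 and M phase lists in red and 1.5-fold lines dashed. IGFBP5, S100B, MXD4 and SLC26A2 lie high on both axes, and IL24 is high on the parental axis at 2.52 with -0.30 on the persister axis.

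Parental barcodes with at least 2500 and fewer than 5000 UMIs, which were not among the 9094 cells, were split at the same limit. In the 119 low-marker barcodes 590 of 5989 measured genes were higher, which is 9.85%, and 665 were lower, which is 11.1%, than in the remaining barcodes of that depth. The 119 barcodes summed to 490912 UMIs, so their folds are less precise. Of 5570 genes measured at both depths, 144 were higher at both, which is 57.4% of the 251 from the 455 cells and 38.6% of the 373 from the shallow barcodes, and 294 were lower at both, which is 60.2% of 488 and 46.0% of 639.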

How the data were processed

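The authors deposited raw UMI counts for each gene in each barcode, as integer matrices per the file headers. The submitters' processing notes name Cell Ranger 3.1.0 and GRCh38; for the annotation release, it was not given in the sources used here. How reads that match several genes were handled bears on near-identical genes.

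The slow-cycling cells and the gene lists were chosen with earlier results of these data known. The limits of 5000 UMIs and 20% mitochondrial UMIs kept 9094 parental and 5942 persister cells, of which 65 persister barcodes were set aside for 3 or more detected T cell genes. Doublets were neither called nor removed. UMIs were summed over cells, giving 3348745 in slow-cycling, 79048388 in remaining parental, 23139951 in low-marker persister and 54183978 in remaining persister cells. CPM were taken over those totals. A gene was measured at 20 CPM or more in either set and called at 1.5-fold on the log2(CPM + 1) scale, with a pseudocount of 1 CPM. Fold intervals are exact conditional binomial and shares exact Clopper-Pearson intervals, both at 95%. Cells were thinned once to 5000 UMIs for values per cell. The calling of genes and the fold intervals were tested on simulated Poisson counts, which hold no variation between cells. The choice of cells and the values per cell were not tested in this way.

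Named genes were the 15 with the highest and lowest folds, up to 3 genes per list with the largest absolute fold at 10 CPM or more, a fixed set, the markers, and the 10 genes in each direction outside the cycle lists that moved most in both libraries. Other genes named in counts were chosen after their values were seen, and so were IL24 and the stress genes singled out as concentrated in few cells. Results of all 28 lists are given in the text or the list plot. Factors for other scalings came from edgeR 4.0.16 and DESeq2 1.42.0, positions from GENCODE 29 on GRCh38 by gene ID, and sequences from RefSeq on GRCh38.p14. Python 3.11.15, numpy 2.4.6, scipy 1.17.1 and R 4.3.3 were used.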

Additional observations from a re-analysis of the deposited data

Results flagged for a closer look

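Parental barcodes with at least 2500 and fewer than 5000 UMIs, which the main comparison leaves out, also held cells at or below 7.358 marker UMIs per 10000: 119 of 1363, or 8.73% (95% exact interval 7.29 to 10.4%). Depth is lower there, and its part in this share was not tested.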

How the results depend on the processing

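No paired analysis was possible because each group has 1 library. Counts are given as higher and lower genes in slow-cycling parental cells, against 301 and 507. They were 184 and 762 with TMM factors, 172 and 788 with DESeq2 size factors, 936 and 777 at 5 CPM, 1850 and 1083 without a filter, 71 and 219 at 2-fold, 142 and 262 at 8000 UMIs or more, 108 and 168 with the 10th percentile, and, chosen after seeing the data, 529 and 858 with at most 2 marker UMIs per 10000, and 500 higher with 5000 to 8000 UMIs. In low-marker persister cells, against 121 and 365, there were 80 higher with TMM, 75 higher with DESeq2, 344 and 597 at 5 CPM, 583 and 731 without a filter, 14 and 210 at 2-fold, and 19 and 76 against cells below the median score. Genes higher and lower in both libraries, against 58 and 270, were 32 higher with TMM, 31 higher with DESeq2, 168 and 435 at 5 CPM, 296 and 505 without a filter, 5 and 155 at 2-fold, 156 lower at 8000 UMIs or more, 31 and 124 with the 10th percentile, and 4 and 56 against cells below the median score. The causes were not tested, apart from the filters and the 2-fold threshold, which change the genes counted by construction. The log2 fold of CXCL8, a chemokine under 20 CPM in both sets, was 0.60 in all 455 cells and -0.10 with 5000 to 8000 UMIs. The second value rests on 218 low cells under a limit of 4.09 taken anew at that depth, so the choice of cells changed as well. Depth limits these counts: the slow-cycling cells summed to 3348745 UMIs, and genes near 20 CPM rest on few of them.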
